A study of Homo sapiens and Mus musculus with 19 samples.

Results

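Chromatin-associated RNA (caRNA) of TET2 knockout K562 cells was compared with that of TET2 wild-type K562 cells, in libraries that share the label of a control shRNA (shControl). The members of this comparison were the 3 libraries labelled TET2KO shControl and the 3 labelled TET2WT shControl, 6 of the 19 samples in the series, chosen by their labels alone. K562 is an established human leukaemia line with erythroid and megakaryocytic features. The TET2WT and TET2KO lines had been made elsewhere, and whether the knockout line was 1 clone is not given in the sources used here. According to the labels, the cells of all 6 libraries carried a lentiviral control shRNA and were selected with puromycin. A second pair of genotypes, 3 libraries each labelled TET2WT shMBD6 and TET2KO shMBD6, is labelled with an shRNA against MBD6. It shares no library with the first pair and is given below as a second comparison of the genotypes, with a limit stated below. WT and KO without further words mean the libraries labelled shControl, and shRNA names refer to labels throughout.

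TET2 is a dioxygenase that oxidises 5-methylcytosine in DNA and, as the study asked, in RNA on chromatin. Loss of TET2 is common in myeloid neoplasms and alters the balance between self-renewal and differentiation of blood progenitors. Methylated cytosine in RNA can be read by proteins such as MBD6, which works with the PR-DUB complex (BAP1 and its ASXL partners) that removes ubiquitin from histone H2A. RNA in the chromatin fraction is largely unspliced and nascent, so its level follows transcription more closely than that of cytoplasmic mRNA. The question addressed here was which pathways, blood-lineage programmes and gene classes differed on chromatin between the genotypes in the libraries labelled shControl. Levels are in CPM (gene counts scaled to a common library size with TMM factors), as the mean ± SD of 3 libraries unless each library is given. Changes are log2 of KO over WT from a quasi-likelihood fit in edgeR, with p-values adjusted by the Benjamini-Hochberg method over all 26023 genes tested, and genes with an adjusted p under 0.05 count as called.

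The targeted genes were examined first. TET2 RNA stood at 118, 122 and 123 CPM in the WT libraries and 131, 128 and 127 CPM in the KO libraries, which did not pass the test (log2 change 0.09 ± 0.04 (SE), adjusted p = 0.0735) and moved to -0.089 with scaling by total gene counts. Since RNA can still be made from a knocked-out gene, these levels neither support nor contradict the genotype labels. MBD6 was lower in KO, at 43.3, 42.7 and 38.6 CPM in the WT libraries and 30.6, 30.8 and 29.4 CPM in the KO libraries, and the groups did not overlap (log2 change -0.46 ± 0.08 (SE), adjusted p = 6.49e-06). The libraries labelled TET2WT shMBD6 held 27.9 CPM of MBD6 on average, below the 41.5 CPM of WT, whereas those labelled TET2KO shMBD6 held 34.4 CPM, above the 30.3 CPM of KO. The targeted gene thus went against the shRNA label in the knockout libraries. Whether the shRNA labels of the KO libraries were exchanged cannot be told from these levels. With exchanged labels, the libraries labelled TET2KO shControl would differ from WT in the shRNA against MBD6 as well as in genotype, and TET2KO labelled shMBD6 over WT would be the comparison with the same control shRNA. The pair labelled shMBD6 would then set KO with the control shRNA against WT with the shRNA against MBD6. Its changes would mix genotype and shRNA, the latter in the opposite direction to the first pair. Main results are therefore given with further log2 changes, that of the pair labelled shMBD6 and in part that of TET2KO labelled shMBD6 over WT. The last shares the WT libraries with the first comparison and is not independent of it. Libraries held 63592160 to 102070223 gene counts, and 28400 to 31932 genes had a count. Reads outside annotated genes took 13.1% to 13.3% of records in WT and 15.0% in KO. Olfactory receptor genes, used as a rough measure of background, averaged 0.0770 to 0.0831 CPM per kb in WT and 0.115 to 0.118 in KO. Of the 416 in this mean 66 passed the filter, with 10 called higher and 3 lower. At least 10 times above the olfactory receptor level lay 8 of them, so the mean is not a level of background alone. Its part in the changes of low genes was not tested. Of 11 K562 identity markers, HBG2 and HBE1 were listed at 0 in all libraries and 7 of the 9 tested were lower in KO, with a summed level of 302 to 320 CPM in WT and 197 to 205 CPM in KO. In bulk libraries fewer cells of a type and less RNA per cell cannot be told apart. Summed markers of other cell types were all higher in KO: the B cell list lay at 1.30 to 2.02 CPM in WT and 2.38 to 2.61 in KO, the T cell list at 3.32 to 3.97 and 10.4 to 10.7, the monocyte list at 23.1 to 27.8 and 35.0 to 38.9, the fibroblast list at 1.02 to 1.69 and 4.23 to 5.37, and the epithelial list at 82.3 to 85.0 and 105 to 112. Their part in the results was not tested.

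Slightly more genes were higher than lower in KO under the main scaling. Of 26023 genes 11921 (45.8%) were called, and 4605 (17.7% of all genes) changed at least 2-fold. Of all 26023 genes, 6127 (23.5%) were called higher in KO and 5794 (22.3%) lower, and 2546 (9.78%) and 2059 (7.91%) of these passed a 2-fold threshold. With scaling by total gene counts the median log2 change over genes went from -0.05 to -0.23, and the split became 4526 higher and 8283 lower. Calls in the same direction in both pairs numbered 10.3% of all genes for higher and 7.42% for lower. For TET2KO labelled shMBD6 over WT, 18.8% were higher and 20.1% lower. These shares are the background against which the lists below are read. The pair labelled shMBD6 gave calls for 58.6% of genes, 7838 (30.1%) higher and 7422 (28.5%) lower. Among the 6127 genes higher in KO, 2672 were called higher in that pair too, which was 43.6% of the first list and 34.1% of the second. A further 1449 (23.6% of the first list) were called lower there and 2006 were not called. Among the 5794 lower genes 1932 were also called lower (33.3% of the first list and 26.0% of the second), and 2696 (46.5% of the first list) were called higher. Counts of list members called the same or the opposite way in that pair are read against these shares. The latter share varied with gene span. Of 618 lower protein-coding genes of 3 to 10 kb 404 were called higher in that pair, of 1400 of 10 to 30 kb 914, and of 266 over 300 kb 16. Among 7033 genes at least 10 times above olfactory receptor level, that pair gave 4534 higher and 880 lower. The part of span and level in the counts of the lists was not tested. Of the 2059 genes at least 2-fold lower in KO, 1500 (72.9%) were called lower in the pair labelled shMBD6 and 144 higher, whereas of the 2546 at least 2-fold higher, 876 were called higher and 639 lower. The scatter of both log2 changes shows large changes of the same sign in both pairs, others of opposite sign, and a mass of moderate changes without a shared sign.

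**Figure D1:**
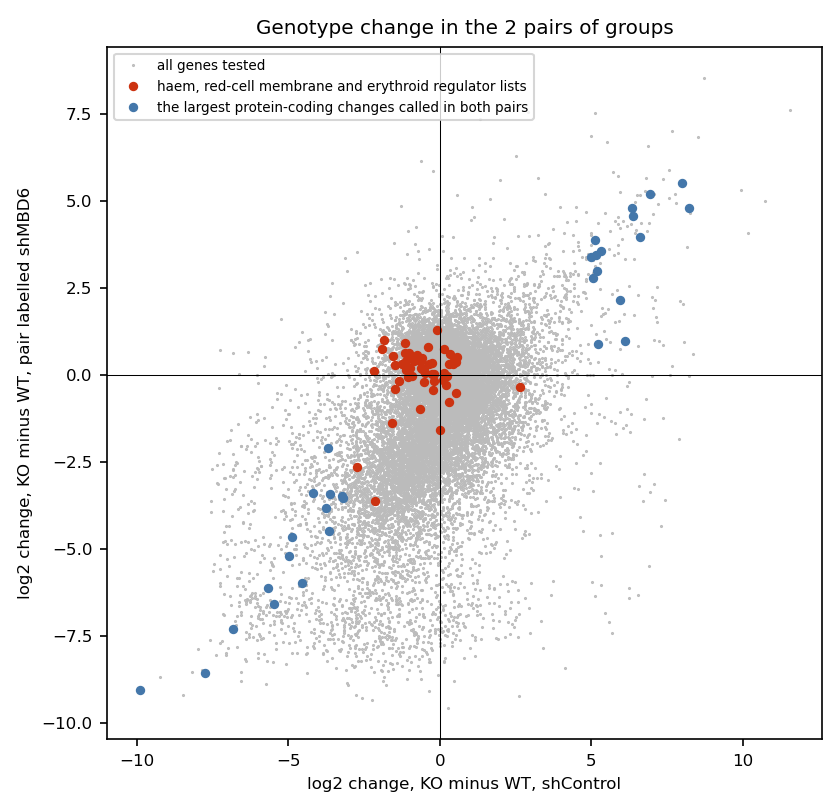
Each grey point is 1 of 26023 genes, with the log2 change of KO over WT under shControl on the horizontal axis and in the pair labelled shMBD6 on the vertical axis. Blue points are the 30 protein-coding genes with the largest changes among those called in the same direction in both pairs, so the rule that chose them set their shared sign. Some, such as MS4A2 at 6.12 against 0.97, lie far from the diagonal. Red points (erythroid lists) lie mostly left of 0 and near or above 0 on the vertical axis.

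Promoters of genes at the extremes of the comparison are shown because TET2 acts on methylated cytosine, which in DNA lies mostly in CpG pairs. Each is the 300 bases from 250 before to 50 after the RefSeq transcription start (GRCh38.p14), 5′ to 3′ on the strand of the gene, with every CpG in capitals. KIT (chr4:54657707-54658006, plus strand) rose and ZNF804A (chr2:184598279-184598578, plus strand) fell, and both start in CpG-dense sequence, with 38 and 36 CpG pairs against a median of 14 over 35116 RefSeq promoters. DACH1 (chr13:71867155-71867454, minus strand), which rose, has 12, and PTPRC (chr1:198638790-198639089, plus strand), which fell, has 1. 
KIT: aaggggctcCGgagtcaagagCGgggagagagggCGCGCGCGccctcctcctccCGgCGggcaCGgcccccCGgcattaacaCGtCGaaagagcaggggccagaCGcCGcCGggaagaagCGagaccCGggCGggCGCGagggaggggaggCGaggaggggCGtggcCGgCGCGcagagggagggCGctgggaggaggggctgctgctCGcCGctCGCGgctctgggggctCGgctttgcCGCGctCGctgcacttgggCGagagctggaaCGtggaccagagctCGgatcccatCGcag 
ZNF804A: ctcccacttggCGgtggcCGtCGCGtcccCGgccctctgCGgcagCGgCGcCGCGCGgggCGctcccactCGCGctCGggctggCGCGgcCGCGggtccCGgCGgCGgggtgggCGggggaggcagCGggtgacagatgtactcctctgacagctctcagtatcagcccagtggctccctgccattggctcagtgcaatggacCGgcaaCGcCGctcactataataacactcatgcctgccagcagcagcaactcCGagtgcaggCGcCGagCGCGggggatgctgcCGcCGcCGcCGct 
DACH1: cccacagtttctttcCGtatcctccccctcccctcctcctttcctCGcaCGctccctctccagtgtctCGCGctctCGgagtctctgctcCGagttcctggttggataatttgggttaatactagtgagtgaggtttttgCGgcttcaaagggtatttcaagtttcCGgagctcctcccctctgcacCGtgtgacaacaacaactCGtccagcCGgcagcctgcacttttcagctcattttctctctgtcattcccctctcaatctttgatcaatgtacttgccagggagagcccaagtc 
PTPRC: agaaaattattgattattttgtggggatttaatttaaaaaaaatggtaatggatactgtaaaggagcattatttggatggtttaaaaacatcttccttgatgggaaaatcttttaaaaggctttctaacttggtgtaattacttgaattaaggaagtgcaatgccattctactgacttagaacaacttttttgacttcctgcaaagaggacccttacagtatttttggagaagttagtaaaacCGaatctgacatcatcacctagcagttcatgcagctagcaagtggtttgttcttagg 
As many CpG pairs as in KIT were found in 9.91% of promoters and as many as in ZNF804A in 12.7%. Among the 15 largest increases shared by the pairs, the promoters of the 13 genes with an entry held 0 to 42 CpG pairs, and among the 15 largest decreases those of 12 genes held 1 to 49, so CpG-rich and CpG-poor starts were found on both sides. No methylation was measured in these libraries.

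A further 3 promoters are shown because erythroid genes fell together and the erythroid regulator GATA1 binds the letters AGATAA and close variants. In KLF1 (chr19:12887152-12887451, minus strand), EPOR (chr19:11384265-11384564, minus strand) and ALAS2 (chrX:55030928-55031227, minus strand), capitals mark AGATAA on either strand, where the first letter may also be T and the last may also be G. The first pair of genes fell in KO and ALAS2 rose. 
KLF1: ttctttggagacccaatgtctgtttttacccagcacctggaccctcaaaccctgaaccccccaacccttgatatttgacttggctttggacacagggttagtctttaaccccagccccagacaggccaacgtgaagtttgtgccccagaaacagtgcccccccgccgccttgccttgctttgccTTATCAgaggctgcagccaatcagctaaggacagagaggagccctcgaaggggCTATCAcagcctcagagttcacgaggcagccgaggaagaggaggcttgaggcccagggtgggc 
EPOR: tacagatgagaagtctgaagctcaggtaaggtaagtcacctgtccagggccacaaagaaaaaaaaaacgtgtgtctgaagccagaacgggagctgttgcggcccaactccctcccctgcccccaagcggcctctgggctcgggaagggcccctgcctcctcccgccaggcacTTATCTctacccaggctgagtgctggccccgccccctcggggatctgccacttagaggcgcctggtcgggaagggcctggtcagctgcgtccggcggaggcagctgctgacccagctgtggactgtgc 
ALAS2: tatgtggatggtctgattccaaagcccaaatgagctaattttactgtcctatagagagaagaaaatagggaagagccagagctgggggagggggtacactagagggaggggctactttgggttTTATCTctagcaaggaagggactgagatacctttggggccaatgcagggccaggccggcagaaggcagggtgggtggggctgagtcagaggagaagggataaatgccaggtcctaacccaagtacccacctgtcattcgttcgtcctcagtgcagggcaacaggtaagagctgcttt 
One of these motifs lay in 25.0% of all 35116 promoters of this length, so a match is a description of the letters and no evidence of binding. A count over the erythroid genes as a set was void, since only 75.3% of the tested members had a promoter entry. EPOR overlaps another gene on its strand, so its level is uncertain.

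Many of the largest differences under shControl were in genes close to silent in one genotype and well expressed in the other. The rule for naming them required at least 10 CPM in the higher group, no overlap among the 6 libraries and a call in the same direction in the pair labelled shMBD6. It left 1732 protein-coding genes higher and 330 lower in KO, and 301 and 54 long non-coding genes. Before the rule 4317 protein-coding genes were called higher and 4515 lower, and 1311 and 1058 long non-coding genes, so the uneven split came with the conditions of the rule. DACH1 (ENSG00000276644.4, chromosome 13, 71437966 to 71867204, minus strand, hg38), a transcriptional co-repressor of development, stood at 0.789, 1.01 and 1.44 CPM in the WT libraries and 329, 334 and 324 CPM in the KO libraries (log2 change 8.22 ± 0.11 (SE), adjusted p = 2.20e-20). Every KO library was far above every WT library, and the log2 changes were 4.81 in the pair labelled shMBD6 and 7.54 for TET2KO labelled shMBD6 over WT. ARHGAP15, a Rac GTPase-activating protein of leukocytes, stood at 2.77, 4.45 and 3.13 CPM in the WT libraries and 881, 913 and 901 CPM in the KO libraries (log2 change 8.0 ± 0.12 (SE), adjusted p = 4.06e-12). KIT (ENSG00000157404.15, chromosome 4, 54657267 to 54740783, plus strand), the stem cell factor receptor of progenitors and mast cells, stood at 0.360, 0.997 and 1.12 CPM in the WT libraries and 27.6, 28.8 and 28.9 CPM in the KO libraries (log2 change 5.05 ± 0.18 (SE), adjusted p = 7.34e-21). The groups did not overlap for either gene, as the rule required, and KIT changed by 2.79 and 4.49 in the other comparisons. TGFBR2, the TGF-beta type II receptor, stood at 0.443, 0.892 and 1.52 CPM in the WT libraries and 22.9, 23.7 and 23.6 CPM in the KO libraries (log2 change 4.57 ± 0.25 (SE), adjusted p = 9.50e-10), again with no overlap and with 3.81 and 5.05 elsewhere. ARHGAP15 overlaps another gene on its strand, so its level is uncertain.

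Other genes of the same kind had varied functions. PDGFD, a platelet-derived growth factor, rose from 1.73 ± 0.584 to 147 ± 3.02 CPM (log2 change 6.36 ± 0.17 (SE), adjusted p = 6.17e-11). SLC18A2, the vesicular monoamine transporter of mast cells and neurons, rose from 0.315 to 24.3 CPM, and MS4A2, the beta chain of the high-affinity IgE receptor, from 0.248 to 17.1 CPM. The log2 change of MS4A2 was 6.12 here and 0.97 in the pair labelled shMBD6, while that of SLC18A2 was 6.35 and 4.80. ESR1, the oestrogen receptor, rose from 2.56 to 162 CPM, CYB5A, a cytochrome b5, from 0.302 to 10.9 CPM, and ACP3, the prostatic acid phosphatase, from 0.276 to 11.2 CPM. The rest of the 15 largest increases were USP26 (6.95), ANKRD62 (6.60), B3GAT1 (5.22), ANKRD6 (5.18), DPY19L2 (5.15) and LRCH2 (5.01), with 5.21, 3.97, 0.88, 3.0, 3.46 and 3.38 in the pair labelled shMBD6, where B3GAT1 and MS4A2 had smaller changes. ANKRD6, ANKRD62, DPY19L2, ESR1 and LRCH2 overlap other genes on their strands, so their levels are uncertain.

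**Figure D2:**
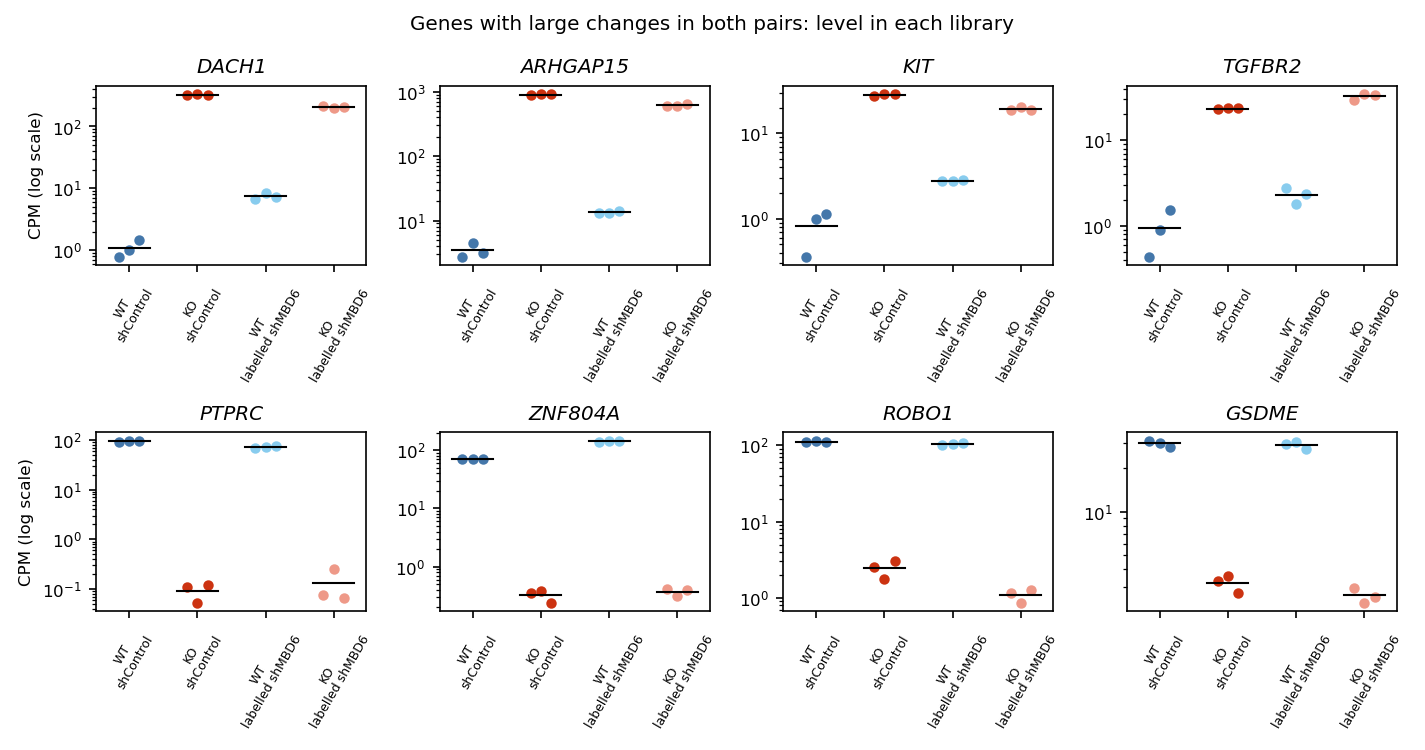
Levels in CPM (log axis) of 8 genes in each of 3 libraries per group, with a line at the group mean. The upper genes sit higher in KO than in WT, and the lower genes lower, under shControl as well as in the pair labelled shMBD6, and the groups of a pair do not overlap. All but TGFBR2 were named by a rule that required no overlap under shControl and a call in the same direction in the other pair.

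Among the decreases PTPRC (ENSG00000081237.19, chromosome 1, 198638457 to 198757476, plus strand), the gene of the leukocyte phosphatase CD45, stood at 91.6, 96.4 and 95.7 CPM in the WT libraries and 0.107, 0.0522 and 0.119 CPM in the KO libraries. It was near silent in all KO libraries (log2 change -9.91 ± 0.15 (SE), adjusted p = 9.44e-33), and the changes in the other comparisons were -9.07 and -9.47. ZNF804A (ENSG00000170396.7, chromosome 2, 184598529 to 184939492, plus strand), a zinc finger gene of neurons, stood at 69.8, 71.7 and 69.8 CPM in the WT libraries and 0.357, 0.383 and 0.237 CPM in the KO libraries (log2 change -7.76 ± 0.09 (SE), adjusted p = 4.77e-35) and changed by -8.59 and -7.56. Both genes separated the genotypes without overlap, which the rule for naming them required. ROBO1, a receptor for SLIT guidance cues, fell from 112 ± 3.14 to 2.44 ± 0.637 CPM. CTLA4, an inhibitory T cell receptor, fell from 11.6 to 0.365 CPM, TP73, a transcription factor, from 34.5 to 1.88 CPM, and GSDME, a gasdermin that forms membrane pores, from 29.9 to 3.21 CPM. EPSTI1, an interferon-responsive gene, fell from 13.8 to 1.13 CPM and BMAL2, a circadian clock gene, from 14.6 to 1.59 CPM. Further log2 changes were PAK5 -6.82, CSMD3 -5.69, LRFN5 -4.55, KCNT2 -3.75, COBLL1 -3.68 and ZNF732 -3.65, and in the pair labelled shMBD6 they were -7.31, -6.13, -5.99, -3.84, -2.12 and -4.50. COBLL1, KCNT2, LRFN5 and ROBO1 overlap other genes on their strands, so their levels are uncertain.

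By the same rule for long non-coding genes, LINC03056 rose from 0.620 to 122 CPM and LINC01818 fell from 34.1 to 0.262 CPM, LINC02444 from 31.2 to 2.10 CPM and LINC00334 from 11.5 to 1.07 CPM. In the pair labelled shMBD6 the log2 changes of these genes were 5.08, -8.04, -4.38 and -5.53. Measured by difference in CPM rather than fold, the largest increases were ARHGAP15 and genes already expressed in WT. AHNAK, a very large scaffold protein, rose from 34.3 ± 1.72 to 638 ± 16.7 CPM (log2 change 4.22 ± 0.04 (SE), adjusted p = 4.24e-39), THSD4 from 21.4 to 547 CPM, ZNF521, a zinc finger repressor of lineage genes in progenitors, from 99.6 to 615 CPM, and DOCK2, a Rac activator of leukocytes, from 269.6 to 983 CPM. CRADD, GNGT1, ST6GAL1, CNTNAP2 and FGGY rose with log2 changes of 1.41, 1.64, 1.08, 2.50 and 2.16. The largest decreases in CPM included PTH2R, a parathyroid hormone receptor, from 725 to 342 CPM, SCN9A, a sodium channel, from 378 to 113 CPM, and SOX5, a SOX transcription factor, from 234 to 20.4 CPM. THRB (-1.62), ADGRB3 (-1.09), ZFPM2 (-1.06), MEF2C (-1.31), GALNT5 (-1.19) and SCIN (-2.0) were also among the 10. The log2 change of SOX5 was -3.52 under shControl and 0.00 in the pair labelled shMBD6. ARHGAP15, CNTNAP2, CRADD, DOCK2, GNGT1, PTH2R, SCIN, THRB, THSD4, ZFPM2 and ZNF521 overlap other genes on their strands, so their levels are uncertain.

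Erythroid genes were lower in KO in the libraries labelled shControl. In red-cell precursors GATA1, TAL1, LMO2 and KLF1 switch on haem synthesis, iron uptake, globins and the membrane skeleton. Of 13 tested haem biosynthesis genes 8 were called lower and 3 higher, of 23 red-cell membrane and blood group genes 16 and 2, and of 20 erythroid regulators 15 and 5, where 22.3% of all genes were called lower. Median log2 changes of these lists were -0.49, -0.92 and -0.60, with -0.05 for all genes. In the pair labelled shMBD6 the medians were 0.38, 0.03 and 0.30 (all genes -0.03), and 7 of the 8 lower haem genes, 7 of the 16 membrane genes and 10 of the 15 regulators were called higher there. Of all genes lower under shControl 46.5% were called higher in that pair, so the membrane count was near the share over all genes. For TET2KO labelled shMBD6 over WT the medians were -0.18, -0.26 and -0.26, so that the size of the erythroid decrease differed with the shRNA label of the libraries used.

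The haem pathway fell at several consecutive steps. UROS, which closes the porphyrin ring, stood at 113, 109.7 and 104 CPM in the WT libraries and 38.7, 35.3 and 36.7 CPM in the KO libraries, and UROD (ENSG00000126088.13), which follows it, at 118, 109.8 and 107 CPM in the WT libraries and 30.7, 31.3 and 30.6 CPM in the KO libraries (log2 change -1.86 ± 0.05 (SE), adjusted p = 1.86e-24). All WT libraries lay above all KO libraries for both genes. In the pair labelled shMBD6 the order was the opposite, with UROD going from 39.04 ± 2.87 to 77.7 ± 3.21 CPM and UROS from 44.1 ± 1.60 to 64.7 ± 3.41 CPM. PPOX fell from 30.2 to 14.9 CPM and FECH, which inserts iron into the porphyrin ring, from 58.9 to 34.6 CPM. The first step went the other way: ALAS2, the erythroid rate-limiting enzyme, rose from 25.3 ± 0.679 to 31.2 ± 0.319 CPM (log2 change 0.31 ± 0.07 (SE), adjusted p = 0.000452) and ALAS1, its housekeeping form, from 19.2 to 27.8 CPM. With total gene counts ALAS2 changed by 0.13 and did not pass.

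Of the genes for the red-cell membrane, SLC4A1, the band 3 anion exchanger, fell from 5.74 ± 0.476 to 0.876 ± 0.283 CPM and DMTN, dematin, from 37.2 ± 2.74 to 12.3 ± 1.40 CPM, and both were also lower in the pair labelled shMBD6 (-2.65 and -1.37). GYPB, a glycophorin, fell from 35.04 to 12.7 CPM, RHAG, the Rh-associated glycoprotein, from 167 to 82.8 CPM, KEL, the Kell blood group protein, from 36.02 to 16.1 CPM, and ERMAP, which carries the Scianna group, from 112 to 51.7 CPM. SPTB, the beta spectrin, had a log2 change of -1.15. Globin genes were poorly measured in this fraction. Of 8 tested, 3 fell and 0 rose, and HBG1, a fetal globin gene with a near-identical copy, stood at 6.63 CPM in WT and 0.990 in KO. HBG1 and SPTB overlap other genes on their strands, so their levels are uncertain.

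Among the regulators LMO2, the bridging factor of the GATA1 and TAL1 complex, stood at 249, 244 and 248 CPM in the WT libraries and 55.9, 51.99 and 56.3 CPM in the KO libraries (log2 change -2.17 ± 0.04 (SE), adjusted p = 6.21e-30). WT libraries were all above KO libraries, while the pair labelled shMBD6 differed little (0.11). GATA1 stood at 58.5, 52.8 and 51.3 CPM in the WT libraries and 35.8, 33.2 and 35.6 CPM in the KO libraries (log2 change -0.63 ± 0.06 (SE), adjusted p = 3.15e-10), with no overlap and with 0.39 in the pair labelled shMBD6. KLF1 fell from 18.7 ± 0.597 to 7.94 ± 0.863 CPM, EPOR, the erythropoietin receptor, from 22.8 ± 1.76 to 10.98 ± 0.882 CPM, GFI1B, an erythroid repressor, from 46.3 to 22.5 CPM, and SOX6, a repressor of fetal globin, from 252 to 125 CPM. LDB1, a cofactor of the same complex, and TAL1 fell, with log2 changes of -0.72 and -0.52, the latter with -0.21 in the pair labelled shMBD6. LYL1, a relative of TAL1, rose from 31.98 to 43.3 CPM and IKZF1, the Ikaros factor, from 249.6 to 311 CPM. Iron handling followed in part: 5 of 13 members fell and 2 rose. TFRC, the transferrin receptor, stood at 584, 572 and 579 CPM in the WT libraries and 319, 320.3 and 315 CPM in the KO libraries (log2 change -0.86 ± 0.03 (SE), adjusted p = 1.61e-24), STEAP3, a ferrireductase, fell from 66.8 to 29.6 CPM, and SLC40A1, the iron exporter ferroportin, from 62.2 to 28.7 CPM, whereas IREB2, an iron-responsive regulator, rose from 81.2 to 124 CPM. TFRC, STEAP3 and SLC40A1 were all higher in KO in the pair labelled shMBD6 (0.40, 1.11 and 1.17), as the plot of erythroid genes by library shows for TFRC. EPOR, GFI1B and SOX6 overlap other genes on their strands, so their levels are uncertain.

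**Figure D3:**
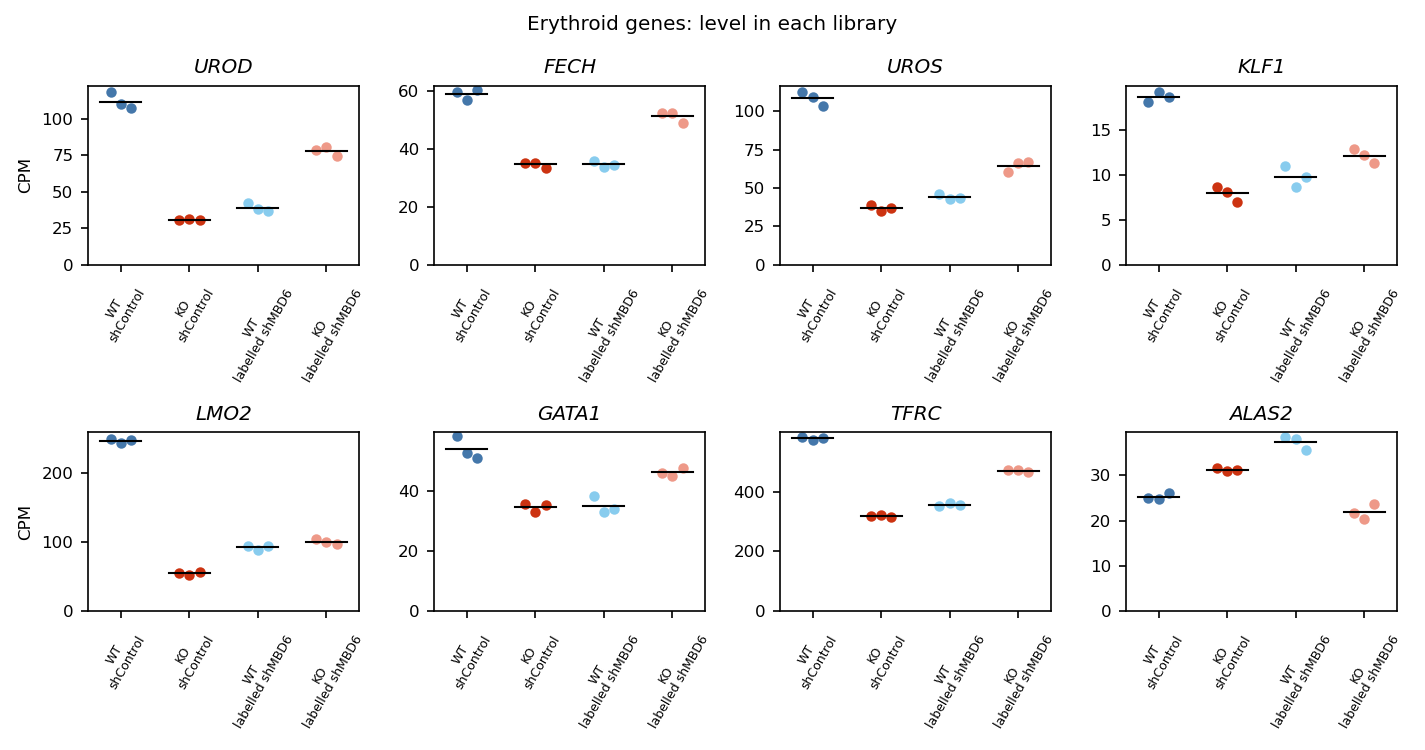
Levels in CPM (axes from 0) of 8 erythroid genes in each of 3 libraries per group, with a line at the group mean. Under shControl KO lies below WT for all but ALAS2; in the pair labelled shMBD6 KO lies above WT for all but ALAS2, and for LMO2 the difference there is small.

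Among called mast cell, monocyte and granulocyte genes more rose than fell. Of 16 tested mast cell, basophil and eosinophil genes 9 rose and 0 fell, with a median log2 change of 1.86. 6 of the 9 were also called higher in the pair labelled shMBD6, and the list median there was -0.34. Beside KIT and MS4A2, HDC, which makes histamine, rose from 0.145 ± 0.1199 to 6.18 ± 0.303 CPM (log2 change 5.30 ± 0.34 (SE), adjusted p = 3.51e-15), and ENPP3, the basophil marker CD203c, stood at 61.9, 65.3 and 62.96 CPM in the WT libraries and 241, 233 and 241 CPM in the KO libraries (log2 change 1.91 ± 0.04 (SE), adjusted p = 4.06e-29). The genotypes did not overlap for ENPP3, and MITF, a mast cell transcription factor, rose from 222 to 364 CPM. SIGLEC6 rose from 2.42 to 12.2 CPM. CPA3, the mast cell carboxypeptidase, was near 0 with means of 0.0348 and 0.0334 CPM in WT and KO. HDC overlaps another gene on its strand, so its level is uncertain.

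Of 19 monocyte and macrophage genes 8 rose and 3 fell, and of 13 granulocyte genes 5 rose and 3 fell. Without KO replicate 2 the calls in the monocyte list went from 11 to 7, and without WT replicate 1 those in the granulocyte list from 8 to 5. With total gene counts the monocyte list gave 7 higher and 4 lower (median 0.0008), and the granulocyte list 4 higher and 3 lower (median 0.065). Only 3 mast cell, 3 monocyte and 1 granulocyte genes were tested at 10 times olfactory receptor level or more, and 2, 2 and 1 were called. The monocyte and granulocyte genes named below all rose. MS4A4A, a macrophage surface protein, stood at 27.9, 26.99 and 27.00 CPM in the WT libraries and 179, 187 and 178 CPM in the KO libraries (log2 change 2.73 ± 0.04 (SE), adjusted p = 2.03e-32), with no overlap and with 0.81 in the pair labelled shMBD6. SPI1 (PU.1), the myeloid master regulator, rose from 23.7 ± 2.10 to 35.6 ± 1.87 CPM (log2 change 0.59 ± 0.07 (SE), adjusted p = 2.59e-08), CD33 from 16.8 to 38.3 CPM, MSR1, a scavenger receptor, from 49.3 to 143 CPM, and ITGAM (CD11b) from 1.12 to 5.11 CPM. CSF3R, the G-CSF receptor, rose from 2.71 to 9.17 CPM, GFI1, a granulocytic repressor, from 0.679 to 5.16 CPM, and TCN1, a granule protein that binds cobalamin, from 1.01 to 31.8 CPM. SPI1, CD33, CSF3R and GFI1 changed by 0.18, 0.36, 0.47 and 1.41 in the pair labelled shMBD6, and TCN1 by -0.85. The megakaryocyte list was split, with 6 higher and 6 lower of 18. TUBB1, the platelet tubulin, stood at 14.5, 12.02 and 12.7 CPM in the WT libraries and 0.262, 0.679 and 0.658 CPM in the KO libraries (log2 change -4.64 ± 0.29 (SE), adjusted p = 6.90e-15), nearly absent from KO, with 0.94 in the pair labelled shMBD6. ITGA2B, the platelet integrin CD41, fell from 40.7 to 32.3 CPM, and SRGN, the granule proteoglycan serglycin, rose from 11.5 to 20.3 CPM. The monocyte list held 3 higher and 8 lower with a median of -1.13, the granulocyte list 3 higher and 6 lower with -0.85 and the megakaryocyte list 4 higher and 8 lower in the pair labelled shMBD6. SRGN overlaps another gene on its strand, so its level is uncertain.

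Genes shared by leukocytes rose more often than they fell. Of 36 tested, 15 were higher, 11 of them in the pair labelled shMBD6 as well, and 7 were lower. HCLS1, a cortactin relative of blood cells, rose from 4.72 ± 0.190 to 49.3 ± 1.56 CPM (log2 change 3.38 ± 0.08 (SE), adjusted p = 1.09e-27), FYB1, an adaptor of T cells and platelets, from 24.5 to 119.9 CPM, and CD53, a leukocyte tetraspanin, from 35.3 to 116 CPM. ARHGDIB, an inhibitor of small GTPases, rose from 0.930 to 10.1 CPM, LCP1, an actin bundler, from 75.4 to 177 CPM, and VAV1, a Rac exchange factor, from 26.4 to 60.5 CPM. Against these stood PTPRC and CD69, an early activation antigen, which fell from 52.4 to 18.3 CPM. Lymphoid lists gave 2 higher and 4 lower of 20 T and NK cell genes, and 2 and 4 of 15 B cell genes. Over all genes 23.5% were called higher and 22.3% lower, so the shares called lower were near that of all genes. In both lists 0 members were tested at 10 times olfactory receptor level or more. CD247, the zeta chain of the T cell receptor, rose from 2.11 to 9.26 CPM and BANK1, a B cell scaffold, from 5.32 to 23.3 CPM, while ZAP70, a T cell kinase, fell from 4.21 to 1.83 CPM. Of 21 stem and progenitor genes 5 rose and 7 fell. RUNX2 rose from 20.4 ± 1.35 to 135 ± 3.81 CPM and KIT as above, while MEIS1, a HOX cofactor of stem cells, fell from 86.9 ± 0.447 to 51.2 ± 2.59 CPM and MECOM from 148 to 99.7 CPM. MEIS1 was also lower in the pair labelled shMBD6 (-0.80), whereas RUNX2 changed by 0.12 there. Under the shMBD6 label the leukocyte list held 15 higher and 11 lower, the T and NK cell list 1 higher and 11 lower, the B cell list 1 higher and 9 lower and the stem and progenitor list 3 higher and 12 lower. BANK1, CD247, FYB1, HCLS1, LCP1 and MECOM overlap other genes on their strands, so their levels are uncertain.

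Immune response lists held calls in both directions. Of 34 tested interferon-stimulated genes 12 were higher and 4 lower, with medians of 0.25, -0.16 and 0.01 in the 3 comparisons. CMPK2, a nucleotide kinase, rose from 15.2 to 27.6 CPM and IRF1, an interferon regulatory factor, from 11.6 to 19.8 CPM, both also higher in the pair labelled shMBD6 (1.13 and 0.48). MX2, a viral restriction factor, rose from 1.29 to 7.84 CPM, with -0.70 in that pair. All 3 called MHC class I genes of 12 were higher: ERAP2 and ERAP1, which trim peptides, by 1.03 and 0.39, and B2M by 0.82. In the NF-kappa-B list 7 of 21 rose and 5 fell. REL rose from 36.5 to 54.96 CPM and ICAM1, an adhesion receptor, from 15.1 to 21.9 CPM, whereas the chemokines CXCL2 and CXCL3 fell from 7.32 to 2.22 CPM and from 4.48 to 2.07 CPM. NFKBIA did not pass the test (log2 change -0.37 ± 0.18 (SE), adjusted p = 0.0893), but passed without WT replicate 2 (-0.51) or KO replicate 1 (-0.52), with total gene counts (-0.54) and with a filter of 1 CPM (-0.40). The NOD-like receptor and osteoclast lists, with 9 higher and 6 lower of 26 and 10 and 6 of 29, had medians of 0.08 and 0.10 that became -0.09 and -0.08 with total gene counts, where the calls were 6 higher and 7 lower and 6 higher and 10 lower. CASP4, an inflammatory caspase, rose from 0.395 to 4.49 CPM and RIPK2, the kinase downstream of NOD receptors, from 19.9 to 34.5 CPM. IL16, a chemoattractant cytokine, stood at 18.96, 19.3 and 19.5 CPM in the WT libraries and 238, 224 and 229 CPM in the KO libraries (log2 change 3.58 ± 0.04 (SE), adjusted p = 1.35e-36), without overlap, and changed by 3.76 in the pair labelled shMBD6. TNFRSF8, the CD30 receptor, rose from 23.7 ± 2.79 to 145 ± 3.32 CPM and by 1.20 there. The NF-kappa-B list held 6 higher and 7 lower with total gene counts, and in the pair labelled shMBD6 the interferon list held 7 higher and 12 lower, the NF-kappa-B list 8 higher and 2 lower, the NOD-like receptor list 8 higher and 5 lower and the osteoclast list 10 higher and 10 lower. REL overlaps another gene on its strand, so its level is uncertain.

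Cytokine receptors and the pathways below them were mixed. Of 26 receptors 11 rose and 7 fell, with a median of 0.15 that was -0.03 with total gene counts, which called 11 higher and 10 lower. Beside TGFBR2, OSMR and LIFR, receptors of the IL-6 family, rose from 3.59 to 14.8 CPM and 3.77 to 14.4 CPM, IL21R from 0.746 to 8.37 CPM and CSF2RB, the common beta chain, from 3.69 to 10.3 CPM. In the JAK-STAT list 11 of 24 fell and 5 rose. BCL6, a repressor under STAT control, fell from 58.8 ± 2.29 to 28.3 ± 0.921 CPM (log2 change -1.06 ± 0.06 (SE), adjusted p = 2.15e-16) and in the pair labelled shMBD6 (-1.42), ID1 fell from 12.9 to 3.79 CPM and PIM1, a kinase induced by STAT5, from 255 to 156 CPM. SOCS3, the feedback inhibitor, rose from 10.4 ± 1.16 to 13.7 ± 1.004 CPM (log2 change 0.40 ± 0.12 (SE), adjusted p = 0.00519), with -0.87 in the pair labelled shMBD6. Without WT replicate 3 it changed by 0.31 and with total gene counts by 0.22, and passed in neither case. Immediate early genes fell more often than they rose, 12 against 3 of 25. EGR1 stood at 18.1, 16.2 and 18.9 CPM in the WT libraries and 6.05, 5.43 and 6.16 CPM in the KO libraries (log2 change -1.59 ± 0.12 (SE), adjusted p = 1.98e-13), NR4A2 fell from 15.1 to 7.90 CPM, JUND from 23.4 to 13.7 CPM and ATF3 from 42.9 to 26.4 CPM. EGR1 was lower in every KO library, but changed by -0.02 in the pair labelled shMBD6. In that pair the cytokine receptors gave 7 higher and 12 lower, the JAK-STAT list 8 higher and 10 lower and the immediate early list 6 higher and 6 lower. LIFR overlaps another gene on its strand, so its level is uncertain.

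Kinase pathway genes rose and fell in like numbers, 13 and 12 of 35 in the RAS-MAPK list and 9 and 6 of 27 in the PI3K-AKT-mTOR list. 8 of the 9 PI3K genes that rose were also called higher in the pair labelled shMBD6. PIK3CG, the PI3K catalytic subunit of leukocytes, rose from 35.7 ± 1.59 to 102 ± 0.695 CPM (log2 change 1.52 ± 0.05 (SE), adjusted p = 6.70e-24), with 1.20 there, RICTOR, the mTORC2 scaffold, from 419 to 655 CPM, and SPRED1, an inhibitor of RAS signalling, from 141 to 301 CPM. RASGRP1, a RAS activator of lymphocytes, rose from 8.24 to 25.9 CPM and by 3.12 in the pair labelled shMBD6, while its relative RASGRP3 fell from 52.9 to 17.8 CPM and changed by -1.19 there. Receptor tyrosine kinases held 22 higher and 16 lower of 53. MET, the HGF receptor, rose from 6.60 to 18.9 CPM, MERTK from 12.6 to 38.3 CPM and ERBB3 from 2.24 to 12.3 CPM, and FGFR3 fell from 43.6 to 15.1 CPM. With total gene counts the RAS-MAPK list gave 11 higher and 17 lower, the PI3K-AKT-mTOR list 9 higher and 11 lower and the receptor tyrosine kinases 20 higher and 19 lower. These lists gave 16 higher and 5 lower, 14 higher and 6 lower and 14 higher and 32 lower in the pair labelled shMBD6. ERBB3 and MERTK overlap other genes on their strands, so their levels are uncertain.

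TGF-beta and BMP genes rose more often than they fell, 19 against 7 of 34, with a median of 0.16 that was -0.02 under total gene counts, which called 10 higher and 9 lower. The inhibitory SMADs SMAD6 and SMAD7 rose from 65.2 ± 3.15 to 146 ± 3.88 CPM and from 15.7 ± 2.01 to 34.96 ± 2.21 CPM, and by 0.84 and 0.66 in the pair labelled shMBD6. ACVRL1, a type I receptor, rose from 0.482 to 7.51 CPM, with -0.94 there. ID1 and GDF15, a stress-induced ligand, fell with log2 changes of -1.76 and -1.12, and LTBP1, which stores latent TGF-beta, fell from 353 to 203 CPM. Wnt genes were even at 10 higher and 10 lower of 33. FZD3 rose from 0.450 to 4.97 CPM and FZD4 from 15.3 to 27.3 CPM, both Wnt receptors, while WNT5B, a ligand, fell from 75.6 to 32.3 CPM. In the Notch list 8 of 23 rose and 4 fell (median 0.13, or -0.04 with total gene counts, which called 7 higher and 5 lower). The coactivator MAML3 rose from 28.1 to 123 CPM and NOTCH1 from 29.9 to 58.6 CPM, with -0.23 and -0.78 in the pair labelled shMBD6, and the targets HES1 and HES6 fell from 30.8 to 18.8 CPM and from 18.6 to 10.9 CPM. Hippo genes rose in 12 and fell in 3 of 22, with a median of 0.12, or -0.06 with total gene counts, which called 6 higher and 5 lower. Wnt genes gave 5 higher and 14 lower with total gene counts. Under the shMBD6 label the TGF-beta list gave 12 higher and 13 lower, the Wnt list 12 higher and 11 lower, the Notch list 5 higher and 5 lower and the Hippo list 6 higher and 8 lower. FZD3, GDF15, LTBP1, MAML3, NOTCH1 and SMAD6 overlap other genes on their strands, so their levels are uncertain.

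Synapse genes that fell under shControl fell in both pairs. Of 48 tested synapse genes 21 were lower and 16 higher, and all 21 lower genes were called lower in the pair labelled shMBD6. That pair called 36 of the 48 lower and 7 higher, and 5 of the 16 that rose under shControl were called lower there. The medians were -0.53, -2.12 and -1.05 in the 3 comparisons. Of all genes lower under shControl 33.3% were called lower in the pair labelled shMBD6. Of the 266 lower protein-coding genes over 300 kb, 234 were called lower there. The part of gene length in the synapse, axon guidance and ion channel counts was not tested. Of the 48 synapse genes 34 overlap other genes on their strands, so their levels are uncertain. Some increases were large: SYT1, a synaptic vesicle calcium sensor, rose from 3.39 ± 0.399 to 102 ± 5.36 CPM (log2 change 4.90 ± 0.08 (SE), adjusted p = 8.80e-32), NRXN3, a presynaptic adhesion protein, from 12.6 ± 0.738 to 208 ± 5.78 CPM and GRIK1, a kainate receptor, from 13.7 ± 0.221 to 129.6 ± 0.813 CPM. In the pair labelled shMBD6 these changed by 3.37, 0.90 and 0.64. Of 41 axon guidance genes 17 rose and 13 fell, 12 of the latter in the other pair as well, with a median of 0.04, or -0.11 with total gene counts, which called 15 higher and 14 lower. PLXNA2, a semaphorin receptor, fell from 52.4 ± 2.33 to 6.44 ± 0.426 CPM (log2 change -3.02 ± 0.08 (SE), adjusted p = 5.69e-25), and SEMA3A, a semaphorin, rose from 17.8 ± 0.911 to 110.3 ± 3.41 CPM. Ion channels fell in 38 and rose in 24 of 104, and 33 of the lower ones were called lower in the other pair, where 69 of the 104 were lower and 10 higher. CACNA1I, a T-type calcium channel, rose from 2.22 to 35.8 CPM. Adhesion and matrix genes gave 10 higher and 11 lower of 34. SPARC rose from 2.14 to 9.85 CPM, FN1, fibronectin, from 14.5 to 58.6 CPM and VIM, vimentin, from 29.5 to 56.4 CPM. Collagens rose in 17 and fell in 11 of 44 (median 0.07, or -0.11 with total gene counts, which called 16 higher and 12 lower): COL21A1 rose from 44.2 to 308 CPM and COL6A3 from 60.6 to 212 CPM, whereas COL25A1 fell from 36.5 to 7.61 CPM. Axon guidance genes gave 9 higher and 25 lower, adhesion and matrix genes 5 higher and 24 lower and collagens 5 higher and 30 lower with a median of -1.17, and 10 of the 17 collagens that rose under shControl were called lower there in the pair labelled shMBD6. COL21A1, NRXN3 and SYT1 overlap other genes on their strands, so their levels are uncertain.

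Metabolic genes were lower in KO in most lists. Among the 5 metabolic lists, cholesterol biosynthesis had the largest share of decreases that recurred in the other pair. 15 of 24 genes were lower and 5 higher, 11 of the lower ones also in the pair labelled shMBD6, with medians of -0.18, -0.25 and -0.29 in the 3 comparisons. LSS, which closes the sterol ring, fell from 136 ± 3.16 to 69.1 ± 1.86 CPM (log2 change -0.97 ± 0.04 (SE), adjusted p = 3.54e-20), MVD, an enzyme of the mevalonate path, from 32.3 to 19.5 CPM, NSDHL, a late sterol enzyme, from 34.7 to 25.7 CPM and STARD4, a sterol carrier, from 33.6 to 25.6 CPM. FDFT1, squalene synthase, rose from 103 to 147 CPM. Folate and nucleotide synthesis was almost uniform under shControl, with 18 lower and 1 higher of 25. Of the 18, 17 were called higher in the pair labelled shMBD6 (46.5% over all lower genes), and the medians were -0.28, 0.62 and 0.08. PAICS, a purine enzyme, stood at 78.8, 79.8 and 75.9 CPM in the WT libraries and 58.9, 56.9 and 53.5 CPM in the KO libraries (log2 change -0.47 ± 0.05 (SE), adjusted p = 1.86e-10), with 0.96 in that pair.

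Glycolysis fell in 10 and rose in 4 of 23 genes. SLC2A1, the main glucose transporter of red cells, fell from 159.6 ± 5.03 to 61.2 ± 3.37 CPM and PKLR, the red-cell pyruvate kinase, from 5.83 to 2.13 CPM, whereas PKM, the pyruvate kinase of proliferating cells, stood at 47.2, 43.5 and 37.99 CPM in the WT libraries and 114, 106 and 113 CPM in the KO libraries (log2 change 1.38 ± 0.06 (SE), adjusted p = 8.87e-20). PKM separated the genotypes without overlap and changed by 0.33 in the pair labelled shMBD6. Nuclear genes of oxidative phosphorylation fell in 12 and rose in 4 of 36, with medians of -0.21, 0.23 and -0.12. COX4I1, a subunit of complex IV, fell from 36.3 to 23.6 CPM. Fatty acid genes fell in 15 and rose in 8 of 33. FADS1 and FADS2, the desaturases of polyunsaturated fatty acids, fell from 236 to 103 CPM and from 87.3 to 43.00 CPM, and ACACB, an acetyl-CoA carboxylase, rose from 49.98 to 115 CPM and by 1.36 in the pair labelled shMBD6. Under the shMBD6 label the glycolysis list gave 14 higher and 3 lower and the fatty acid list 14 higher and 12 lower. ACACB, FADS1, FADS2 and SLC2A1 overlap other genes on their strands, so their levels are uncertain.

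**Figure D4:**
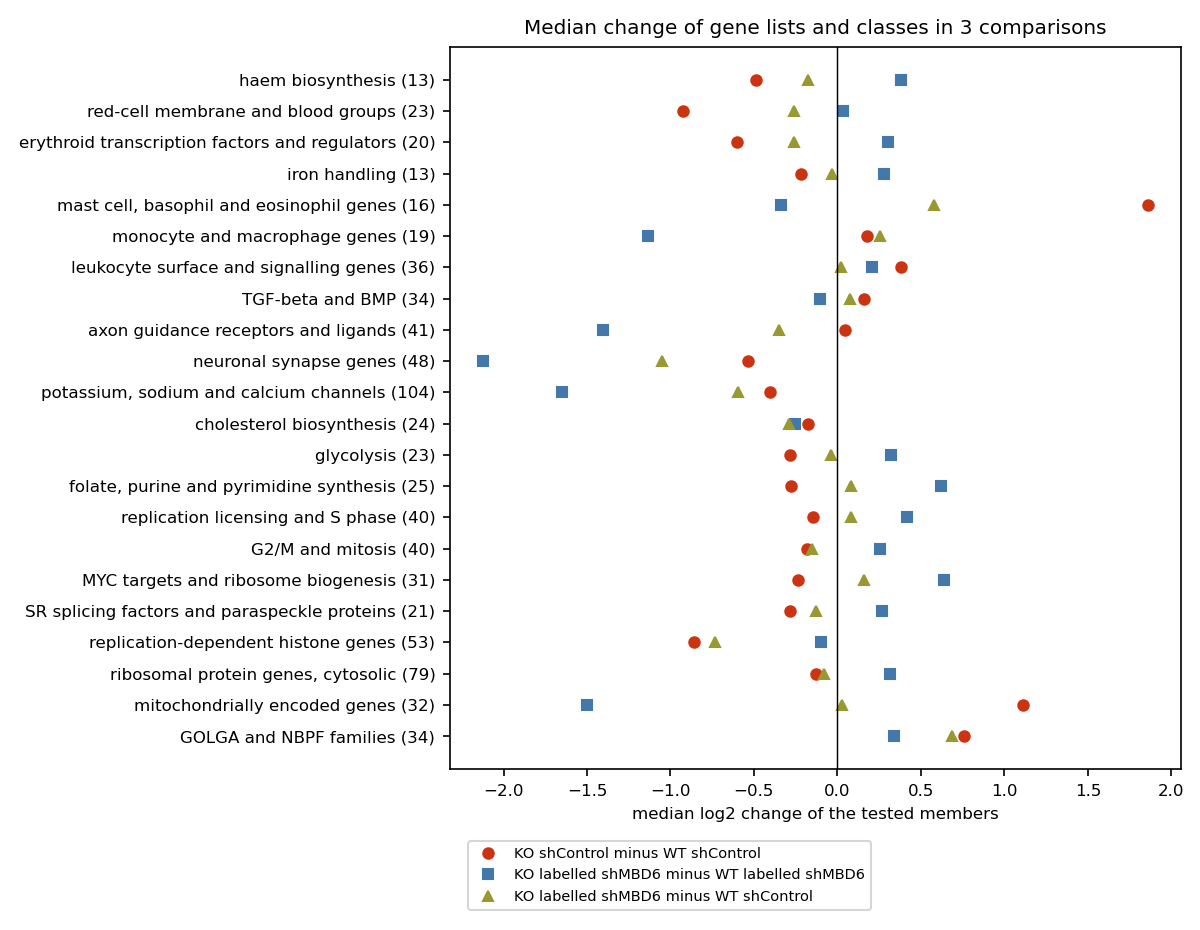
Median log2 change of the tested members (number in brackets) of 22 gene lists and classes: circles for KO over WT under shControl, squares for the pair labelled shMBD6, triangles for TET2KO labelled shMBD6 over WT. Haem, MYC target, folate and mitochondrially encoded genes have circles and squares on opposite sides of 0, whereas cholesterol, synapse, channel, histone and GOLGA and NBPF genes have all 3 symbols on one side.

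Proliferation genes fell by small amounts under shControl. 21 of 40 S phase genes were lower and 5 higher, 22 and 4 of 40 mitotic genes, and 18 and 2 of 31 MYC target and ribosome biogenesis genes. Medians were -0.15, -0.18 and -0.24, and in the pair labelled shMBD6 0.42, 0.26 and 0.64, where 19, 14 and 18 of the lower genes were called higher (46.5% over all lower genes). CCNE1, cyclin E1, stood at 18.2, 14.9 and 16.1 CPM in the WT libraries and 8.19, 7.92 and 7.65 CPM in the KO libraries (log2 change -1.05 ± 0.11 (SE), adjusted p = 1.03e-09), with 0.57 in the pair labelled shMBD6. MCM2, a subunit of the replicative helicase, fell from 55.5 to 38.5 CPM, E2F8 from 70.3 to 35.7 CPM, NOP16, a nucleolar protein, from 19.5 to 10.1 CPM and PLK1, a mitotic kinase, from 55.3 to 41.1 CPM. CDK6, the cyclin D kinase of blood progenitors, rose from 287 ± 7.57 to 477 ± 13.9 CPM and by 0.37 in the other pair. CDKN1A (p21), a cell cycle inhibitor, fell from 7.98 to 4.18 CPM and changed by -2.95 in the pair labelled shMBD6, and BAX, a pro-apoptotic gene, fell from 12.5 to 7.76 CPM. Among apoptosis regulators 7 rose and 6 fell of 26, with BCL2 rising from 11.7 to 30.7 CPM and MCL1 falling from 77.6 to 48.1 CPM. In the homologous recombination and Fanconi list 9 rose and 9 fell of 28 (median 0.01, or -0.17 with total gene counts, which called 5 higher and 15 lower). FANCI and BLM, both on chromosome 15, rose from 193 to 332 CPM and from 123 to 208 CPM, and ATM fell from 144 to 101 CPM. With total gene counts the apoptosis list gave 4 higher and 13 lower, and in the pair labelled shMBD6 it gave 14 higher and 3 lower and the homologous recombination list 20 higher and 1 lower. BCL2, CDK6 and MCL1 overlap other genes on their strands, so their levels are uncertain.

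Stress pathways did not move as units. In the ATF4 and unfolded protein response list 14 of 29 fell and 6 rose, and 12 of the lower ones were called higher in the pair labelled shMBD6 (46.5% over all lower genes). PHGDH, the first enzyme of serine synthesis, fell from 302 ± 6.34 to 202 ± 3.55 CPM and in that pair (-0.17), and EDEM1, which clears misfolded glycoproteins, rose from 114 to 194 CPM. Hypoxia-inducible genes rose in 12 and fell in 5 of 25, with a median of 0.17, or -0.01 with total gene counts, which called 6 higher and 8 lower. CA12, a carbonic anhydrase, stood at 3.46, 3.77 and 3.14 CPM in the WT libraries and 45.01, 46.6 and 43.2 CPM in the KO libraries (log2 change 3.70 ± 0.11 (SE), adjusted p = 1.21e-24), without overlap and with 2.51 in the pair labelled shMBD6, and BNIP3L, a mitophagy receptor, rose from 32.2 to 75.2 CPM. NRF2 targets rose in 10 and fell in 6 of 28 (median 0.12, or -0.06 with total gene counts, which called 6 higher and 9 lower). GCLC, which starts glutathione synthesis, rose from 38.3 ± 4.78 to 85.6 ± 5.53 CPM, MGST1, a glutathione transferase, from 25.6 to 64.7 CPM and ME1, malic enzyme, from 52.9 to 102 CPM, and all rose in the pair labelled shMBD6 as well (0.63, 1.20 and 0.38). Heat shock genes gave 6 higher and 4 lower of 18. With total gene counts the heat shock list gave 3 higher and 5 lower. The hypoxia list gave 7 higher and 9 lower, the NRF2 list 13 higher and 5 lower and the heat shock list 9 higher and 2 lower in the pair labelled shMBD6. BNIP3L, GCLC and MGST1 overlap other genes on their strands, so their levels are uncertain.

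Genes for the TET2, MBD6 and chromatin machinery itself held calls in both directions. In the DNA methylation and TET list 3 of 16 rose and 5 fell, with a median of 0.04, or -0.14 with total gene counts, which called 2 higher and 10 lower. TET1 stood at 189, 193 and 188 CPM in the WT libraries and 281, 276 and 291 CPM in the KO libraries (log2 change 0.57 ± 0.03 (SE), adjusted p = 2.32e-17), higher in every KO library, and changed by 0.57 in the pair labelled shMBD6. GADD45A, a stress gene linked to DNA demethylation, fell from 39.5 ± 1.89 to 14.8 ± 0.385 CPM and TDG, the glycosylase that removes oxidised cytosine, from 63.02 to 47.8 CPM. Of 11 PR-DUB genes 6 fell and 4 rose. BAP1, the catalytic subunit, fell from 28.3 ± 1.21 to 20.8 ± 2.40 CPM (log2 change -0.44 ± 0.08 (SE), adjusted p = 5.17e-05), with 0.66 in the pair labelled shMBD6, and MBD5 rose from 194 to 426 CPM. ASXL1 changed by -0.08 (adjusted p = 0.0279, edgeR), a call lost without any 1 of the WT libraries or KO replicate 2 (-0.09 to -0.06). PRC1 genes rose in 9 and fell in 4 of 24 (median 0.08, or -0.10 with total gene counts, which called 5 higher and 10 lower). KDM2B, which brings PRC1 to CpG islands, rose from 68.8 to 101 CPM and BCOR, its partner in the variant complex, fell from 404 to 271 CPM. PRC2 was even at 3 and 3 of 12, with PHF19, an accessory subunit, falling from 223 to 120.0 CPM. The HUSH and H3K9 methylation list had 8 higher and 3 lower of 18 (median 0.08, or -0.10 with total gene counts, which called 3 higher and 8 lower), with SUV39H1, an H3K9 methyltransferase, falling from 28.9 to 17.2 CPM and CBX5, which encodes HP1 alpha, rising from 88.8 to 137 CPM. PRC2 genes gave 1 higher and 8 lower with total gene counts. Under the shMBD6 label the DNA methylation list gave 10 higher and 3 lower, PR-DUB 5 higher and 4 lower, PRC1 12 higher and 6 lower, PRC2 8 higher and 0 lower and the HUSH list 10 higher and 3 lower. CBX5, KDM2B, MBD5 and TET1 overlap other genes on their strands, so their levels are uncertain.

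RNA m6A and splicing genes fell more often than they rose, while calls in the RNA m5C list were even. For RNA m5C 3 rose and 3 fell of 13 (median 0.04, or -0.14 with total gene counts, which called 2 higher and 7 lower). NSUN2, the main m5C methyltransferase, did not pass the test (log2 change -0.07 ± 0.04 (SE), adjusted p = 0.127), though it did without WT replicate 1 (-0.10), with total gene counts (-0.25), in DESeq2 (-0.095), with a filter of 1 CPM (-0.11) and with only the 2 groups in the fit (-0.089). NSUN4, a mitochondrial relative, fell from 75.9 to 63.8 CPM. For RNA m6A 10 fell and 5 rose of 21. All 10 lower genes were called higher in the pair labelled shMBD6 and all 5 higher genes were called higher again. Of all genes lower under shControl 46.5% were called higher in that pair, a share that was larger in short genes, as given above. METTL3, the catalytic m6A methyltransferase, fell from 65.5 ± 3.85 to 44.02 ± 2.03 CPM (log2 change -0.57 ± 0.06 (SE), adjusted p = 1.50e-09), with 0.69 in that pair, and VIRMA, a scaffold of the same complex, rose from 55.6 to 77.1 CPM. SR splicing factors and paraspeckle proteins fell in 15 and rose in 2 of 21, and 14 of the lower were higher in the pair labelled shMBD6 (medians -0.28, 0.26 and -0.13). SRSF5 was the exception and fell from 107 to 70.2 CPM, with -0.55 in that pair. SFPQ, a paraspeckle protein, fell from 448 to 358 CPM and SRSF7 from 95.3 to 69.1 CPM. Chromatin remodelling genes gave 8 higher and 12 lower of 35, with SMARCA1, an ISWI ATPase, rising from 4.01 to 20.3 CPM and DPF3, a BAF subunit, falling from 64.8 to 29.3 CPM. The m5C list gave 9 higher and 2 lower and the remodelling list 24 higher and 3 lower in the pair labelled shMBD6. DPF3 overlaps another gene on its strand, so its level is uncertain.

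Classes of RNA also took different shares of the counts. Mitochondrially encoded RNA took 0.0229% ± 0.000893 (SD, n = 3) of gene counts in WT and 0.0514% ± 0.00288 in KO, while the libraries labelled TET2WT shMBD6 had 0.0460% and those labelled TET2KO shMBD6 0.0254%. The genotype order was thus opposite in the pairs, and 15 of 32 mitochondrial genes tested were higher and 0 lower, 12 of them called lower in the other pair. MT-ND2, a subunit of complex I, rose from 11.4 to 51.5 CPM. Replication-dependent histone genes took 0.0895% ± 0.00418 in WT and 0.0586% ± 0.000943 in KO, and 0.0740% and 0.0535% in the pair labelled shMBD6, the same order. 36 of 53 histone genes were lower and 2 higher, with medians of -0.86, -0.10 and -0.73. H1-2, a linker histone, fell from 53.4 to 23.2 CPM, H3C10 from 16.4 to 7.25 CPM and H2AC13 from 14.7 to 4.64 CPM, although near-identical copies make single histone genes uncertain. Cytosolic ribosomal protein genes took 0.246% ± 0.00591 and 0.205% ± 0.00452, with 34 lower and 16 higher of 79, and 32 of the lower were called higher in the pair labelled shMBD6 (46.5% over all lower genes). Long non-coding genes took 10.2% ± 0.0590 of counts in WT and 12.9% ± 0.0615 in KO, and 11.5% and 11.0% in the pair labelled shMBD6. For each of these 4 classes and for protein-coding genes over 300 kb, the 3 libraries of one genotype lay on one side of the other 3, which gave a two-sided exact permutation p = 0.1, the smallest that 3 against 3 allow (0.1 after adjustment over the 5 shares). Small nucleolar RNA host genes fell in 12 and rose in 2 of 23, with SNHG8 falling from 13.2 to 6.37 CPM. Under the shMBD6 label the host genes gave 18 higher and 2 lower. SNHG8 overlaps another gene on its strand, so its level is uncertain.

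Gene families with many copies were one-sided in places. Of 34 GOLGA and NBPF genes 17 rose and 2 fell, with medians of 0.76, 0.34 and 0.68 in the 3 comparisons. NBPF14 rose from 16.5 to 46.3 CPM and GOLGA8A from 60.2 to 117 CPM. Copies of these genes share sequence, and reads with several alignments had been set aside, so single members are uncertain. Lists were not split by chromosome, and the part in this list of the rise over chromosome 15 given below was not tested. ZNF genes fell in 152 and rose in 108 of 449. ZNF43 fell from 91.4 ± 1.73 to 21.4 ± 0.666 CPM and ZNF730 rose from 4.78 to 71.5 CPM, in the pair labelled shMBD6 by -2.03 and 2.99. HOX genes rose in 5 and fell in 2 of 11, with HOXB3 rising from 125 to 166 CPM and HOXB7 falling from 78.3 to 56.4 CPM. TBX15, a T-box factor of mesoderm, stood at 8.47, 9.15 and 7.13 CPM in the WT libraries and 238, 247 and 248 CPM in the KO libraries (log2 change 4.89 ± 0.07 (SE), adjusted p = 6.07e-26), without overlap, and rose by 2.89 in the other pair, whereas PAX6 fell from 51.95 to 29.5 CPM. Cancer-testis and germline genes gave 8 higher and 8 lower of 37. MAGEC1 on chromosome X rose from 7.97 ± 1.13 to 27.2 ± 1.25 CPM and by 2.10 in the pair labelled shMBD6, and SSX1, which has near-identical neighbours, from 8.64 to 36.02 CPM. Imprinted genes were even at 9 and 9 of 28. Regulators of small GTPases (the ARHGAP, ARHGEF, DOCK and related families) rose in 36 and fell in 20 of 83 (median 0.17, or -0.00 with total gene counts, which called 26 higher and 27 lower), with ARHGEF6 rising from 51.9 to 143 CPM. Receptor-type phosphatases fell in 11 and rose in 5 of 19, with PTPRJ, CD148, rising from 183 to 438 CPM. Solute carriers gave 86 higher and 95 lower of 340, and ABC transporters 12 and 16 of 45. ABCB4, a phospholipid transporter, rose from 0.496 ± 0.286 to 12.1 ± 1.55 CPM and its neighbour ABCB1, the multidrug transporter, from 0.985 to 4.79 CPM, by 2.26 and 1.75 in the pair labelled shMBD6. Imprinted genes gave 6 higher and 10 lower with total gene counts. The ZNF genes gave 220 higher and 84 lower, the HOX genes 6 higher and 2 lower, cancer-testis genes 8 higher and 9 lower, imprinted genes 7 higher and 11 lower, regulators of small GTPases 22 higher and 45 lower (18 of the 36 increases called lower there), receptor-type phosphatases 3 higher and 15 lower, solute carriers 130 higher and 121 lower and ABC transporters 19 higher and 18 lower in the pair labelled shMBD6. GOLGA8A, HOXB3, HOXB7, PTPRJ and ZNF730 overlap other genes on their strands, so their levels are uncertain.

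Calls varied with gene length, and the share called higher went opposite ways in the pairs. Among 16266 protein-coding genes tested, 26.5% were higher and 27.8% lower. In genes of 3 to 10 kb 11.7% were higher and 28.5% lower, while in those over 300 kb 46.5% were higher and 32.9% lower. Genes over 300 kb took 13.3% ± 0.119 of gene counts in WT and 14.6% ± 0.0550 in KO, and 14.3% and 12.7% in the pair labelled shMBD6. The olfactory receptor level given above also differed between the genotypes, and its part in this pattern was not tested. Among long non-coding genes 18.0% were higher and 14.5% lower of 7289, and among processed pseudogenes 16.2% and 3.12% of 705. Grouped by CpG pairs around the annotated 5′ end of the gene, protein-coding genes with 0 to 3 were at least 2-fold higher in 13.8% and lower in 11.3%, and those with 20 to 29 in 5.06% and 5.03%, so that large changes in both directions were more frequent at CpG-poor starts. In the pair labelled shMBD6 the share called higher fell with length, with 843 of 2171 genes of 3 to 10 kb higher and 224 lower, and 155 of 808 genes over 300 kb higher and 552 lower.

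**Figure D5:**
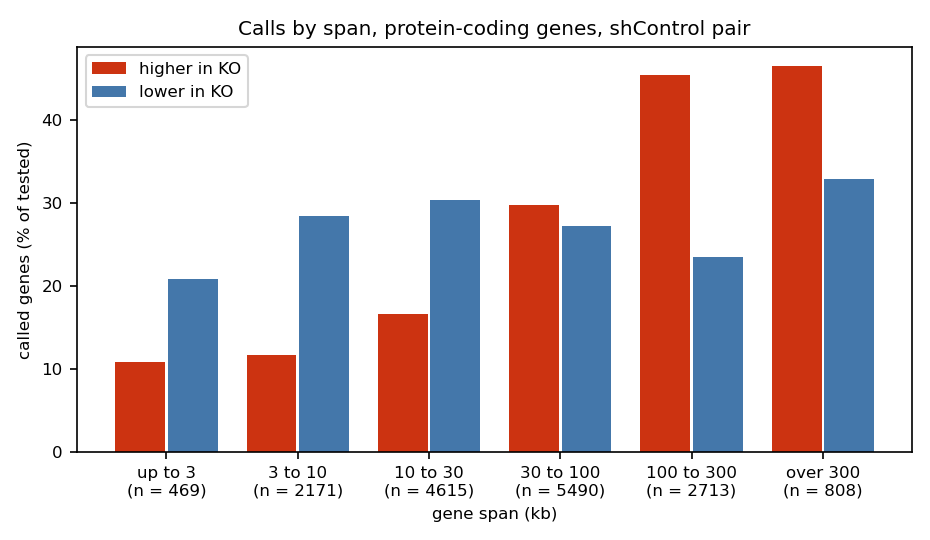
Share of tested protein-coding genes called higher (red) or lower (blue) in KO under shControl, by gene span in kb. The share called higher goes from 11.7% at 3 to 10 kb to 46.5% over 300 kb, and the share called lower stays between 20.9% and 32.9%.

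Changes were uneven along the genome. On chromosome 15, 49.7% of 870 genes were called higher and 3.91% lower, with a median of 0.53 in the shControl pair, 0.59 in the pair labelled shMBD6 and 0.55 for TET2KO labelled shMBD6 over WT. Chromosome 8 had 36.0% higher and 11.9% lower, with medians of 0.23, -0.02 and 0.16, and chromosome 7 had 31.7% and 17.5%, with 0.13, 0.05 and 0.10. Copy number was not measured in these libraries, and its part was not tested. Genes named above that lie on chromosome 15 include HDC, IL16, THSD4, FANCI, BLM, B2M, CA12, GOLGA8A, IREB2, PKM, RASGRP1, SMAD6 and SPRED1. The part of the rise over this chromosome in the changes of single genes and of the lists that hold them was not tested. Neighbouring genes also moved together. Protein-coding genes called at least 2-fold in one direction formed 74 runs of at least 3 adjacent tested genes, 40 of them higher with 135 genes and 34 lower with 109. Members of the MS4A family on chromosome 11 rose as a run of 5, from MS4A3 (5.37 to 77.2 CPM) through MS4A2, MS4A6A and MS4A4A to MS4A4E (3.99 to 71.9 CPM), although only 2 of the 5 were called higher in the pair labelled shMBD6. ABCB1, ABCB4, CROT and TMEM243 on chromosome 7 rose together and all 4 were called higher in both pairs. On chromosome 2 the sodium channel genes SCN1A, SCN9A and SCN7A fell with XIRP2, and CAPN13, GALNT14 and CAPN14 fell in a run of 4, and all members of both runs were called lower in both pairs. A run of 5 zinc finger genes on chromosome 19 that starts at ZNF875 (-2.09) was lower, with 3 of the 5 lower in both pairs. CAPN13, MS4A4E, SCN1A, TMEM243 and ZNF875 overlap other genes on their strands, so their levels are uncertain.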

How the data were processed

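Chromatin-associated RNA was taken from the chromatin pellet left after lysis of cells and nuclei, depleted of ribosomal RNA and sequenced as stranded libraries. Reads had been trimmed with Trimmomatic 0.39, aligned to hg38 with HISAT2 2.2.1 and assigned to GENCODE 29 genes, per the labels with HTSeq 0.12.4 (the methods of the study also name featureCounts). The values deposited by the authors were raw counts per gene, 1 table of 58721 genes for each library, and the lines that summarise unassigned reads were left out of all totals and tests. Ambiguous reads took 4.70% to 5.24% and reads with several alignments 10.1% to 10.9% of records in the 6 shControl libraries, and neither entered a gene. A spike-in had been added during preparation, but 0 spike-in lines were found, so no absolute scale was used and a change in total RNA was not measured.

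Genes were tested with the quasi-likelihood test of edgeR 4.0.16 in R 4.3.3 (TMM scaling, a minimum count of 10 in filterByExpr, robust dispersion) on all 12 K562 libraries of 4 groups, with no covariate. Gene coordinates and names came from GENCODE 44, which matched 99.1% of identifiers, and promoters from RefSeq. The labels do not say that replicates came from separate cultures, so p-values measure the spread between these libraries, which may be technical. Replicates differed by more than counting noise (chi-square per degree of freedom 5.30 to 14.9), and all were kept. Members and gene lists were chosen with earlier results of these data known, and no set test was run. Genes are named as targets of the study, as the 15 protein-coding and 5 long non-coding genes with the largest log2 change each way that were called in both pairs at 10 CPM or more (of the latter those with a gene symbol are printed), as the 10 with the largest difference in CPM each way, or as list members with the largest changes, up to 6, or a role described, and some of these are not reported here. Alternatives were other scalings, filters, groups and tests (DESeq2 1.42.0), a replicate block and leaving out each library. The edgeR steps were tested on simulated data.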

Additional observations from a re-analysis of the deposited data

Results flagged for a closer look

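For the genes below every KO library lay on one side of every WT library under shControl and on the other side in the pair labelled shMBD6. The difference between the pairs was not tested, and MBD6 itself went against the shRNA label in KO. The values are log2 changes in the pair labelled shMBD6, and each has the sign opposite to that under shControl.

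Among genes lower under shControl, the haem enzymes UROS, UROD, PPOX and FECH changed by 0.55, 0.99, 0.62 and 0.57. The erythroid regulators GATA1, KLF1, GFI1B, LDB1, LMO2 and SOX6 changed by 0.39, 0.31, 0.56, 0.43, 0.11 and 0.50. Red-cell membrane and globin genes of this kind were SPTB, RHAG, KEL, ERMAP and HBG1 with 0.91, 0.20, 0.64, 0.40 and 0.66. For iron handling and the platelet tubulin, TFRC, STEAP3, SLC40A1 and TUBB1 had 0.40, 1.11, 1.17 and 0.94. The metabolic genes PKLR, PAICS, FADS1, FADS2 and COX4I1 were higher there by 1.06, 0.96, 0.25, 0.74 and 0.16. In the proliferation lists CCNE1, MCM2, E2F8, PLK1 and NOP16 gave 0.57, 0.92, 0.95, 0.12 and 0.76. Stress and signalling genes included ATF3, JUND, NR4A2, CXCL3, MCL1, GADD45A and FGFR3 at 0.54, 0.22, 0.51, 0.63, 0.53, 0.24 and 0.18. Chromatin genes with this order were BAP1, ASXL1, BCOR, PHF19, SUV39H1, TDG, H1-2 and HOXB7 at 0.66, 0.20, 0.65, 0.19, 0.56, 0.54, 0.25 and 0.37. RNA genes were METTL3, NSUN4, SRSF7, SFPQ and SNHG8 at 0.69, 0.48, 0.39, 0.16 and 0.80. The last genes of this order were ZFPM2 and GALNT5 with 0.84 and 0.49.

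Among genes higher under shControl and lower in the other pair, the myeloid and granule genes MS4A3, MS4A4E, TCN1 and CSF2RB changed there by -0.48, -1.71, -0.85 and -0.34. The lymphoid and cytokine genes CD247, BANK1, IL21R, SOCS3 and MX2 gave -0.98, -0.45, -0.84, -0.87 and -0.70. Receptors and signalling genes of this order were ACVRL1, NOTCH1 and MAML3 with -0.94, -0.78 and -0.23. Matrix and surface genes were FN1, COL6A3, CNTNAP2 and ST6GAL1 with -0.24, -0.31, -0.35 and -0.87. Metabolic and mitochondrial genes were ALAS2, FDFT1, FGGY and MT-ND2 with -0.77, -0.63, -0.29 and -1.58. The chromatin genes MBD5 and SMARCA1 completed the group with -0.37 and -0.33.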

How the results depend on the processing

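Most calls of the named genes did not depend on the settings tried. Of 254 named genes, 248 kept their direction and their side of the threshold under every alternative in which they were tested. Many had been picked for large changes, and only 119 were tested under the restriction to genes at least 10 times above the level of olfactory receptor genes. TET2 reversed, to -0.089 with total gene counts, and with the replicate number as a block it was called higher at 0.089. ALAS2 (0.13) and SOCS3 (0.22) were no longer called with total gene counts, and ASXL1, NFKBIA and NSUN2 crossed the threshold in some alternatives. Calls under shControl numbered 12639 with the DESeq2 Wald test, 12022 with DESeq2 size factors and 11748 without a filter, against 11921, and 10636 to 10981 when 1 library was left out. The cause of these differences was not tested.

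Scaling moved the split of calls. Total gene counts gave 4526 higher and 8283 lower under shControl, 2132 and 2689 of them 2-fold, and 5778 and 8828 in the pair labelled shMBD6, where DESeq2 gave 6288 and 9030 against 7838 and 7422. Restricting the test to the 7033 genes at least 10 times above the level of olfactory receptor genes gave, with fewer genes tested, 4943 calls under shControl (2289 higher and 2654 lower), 453 of them 2-fold (305 and 148), 5414 in the pair labelled shMBD6 (4534 and 880) and 3623 for TET2KO labelled shMBD6 over WT (2107 and 1516). A filter of 1 CPM in 3 libraries left 1194 genes at least 2-fold lower.

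Replicate numbers do not pair the libraries: deviations of same-numbered WT and KO libraries correlated at 0.010 to 0.019 under shControl. With the replicate block 11875 genes were called (6168 higher and 5707 lower), and among the results only TET2 crossed the threshold. The number of called members moved by over 1.5 times in 54 of 84 lists under the restriction to genes above background, in 3 lists when 1 library was left out, in 2 each with total gene counts and the 1 CPM filter and in 1 with only the groups compared. All 5 shares of counts kept their direction. The level of olfactory receptor genes, which bears on low genes, differed between genotypes.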
